A study of Mus musculus with 6 samples.

Results

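Fc gamma receptors are the surface receptors through which leukocytes bind IgG. Described here are the 6 mouse genes for these receptors and their partners, namely Fcgr1, Fcgr3, Fcgr4, Fcgr2b, Fcer1g, and Fcgrt, in monocytes that had entered the CNS of mice with EAE, a model of multiple sclerosis. The genes were chosen by name, all 6 were found among the 54232 genes of the files, and all 6 were among the 11254 genes that passed the expression filter. The data were RNA-seq of 3 WT and 3 Ifnar1-/- libraries. Both kinds of monocyte came from mixed BM chimeras: lethally irradiated GFP+ recipients received WT (CD45.1) and Ifnar1-/- (CD45.2) BM at a 1:1 ratio, EAE was induced 6 to 7 weeks later, and every mouse was given 30000 IU of IFN-b per day. Ifnar1-/- cells lack a chain of the receptor for all type I IFNs. GFP- CD45+ CD11b+ Ly6Chi Ly6G- cells were sorted at disease peak. All 6 libraries thus come from IFN-b-treated mice, and differ in whether the monocytes could respond to type I IFN. Donor strain and genotype cannot be told apart, because each genotype came from donors of 1 CD45 variant. The paper's figure legend gives 3 recipient mice and 3 monocyte samples per genotype, but not which libraries shared a mouse. The labels number the libraries in each group but do not say that each came from its own animal. The p-values therefore measure the spread between these libraries, and the main test did not pair them.

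FcgammaRI (Fcgr1), FcgammaRIII (Fcgr3), and FcgammaRIV (Fcgr4) are the activating receptors of the mouse. They have no signaling motif of their own and pair with the FcR gamma chain (Fcer1g), whose ITAM recruits the kinase Syk and starts phagocytosis, oxidative burst, and cytokine release. FcgammaRIIb (Fcgr2b) carries an ITIM, recruits the phosphatase SHIP-1, and restrains the same pathway, so the balance of activating to inhibitory receptors sets how strongly a myeloid cell responds to immune complexes. FcRn, of which Fcgrt encodes the heavy chain, binds IgG at acidic pH inside the cell and protects it from degradation. Fcgr1 is widely used as a marker of monocyte-derived cells and is known as an interferon-inducible gene.

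In the deposited files, libraries held between 4531782 and 7321380 expected counts. On normalized CPM (counts scaled to library size), 3 counts corresponded to between 0.427 and 0.638 CPM, which covers counting error only. One small RNA gene, Rn7s2, took 27.8% of the deposited TPM (a level per transcript length, scaled to the same total in each library) in WT library 1, against at most 11.2% for the leading gene of any other library. Levels are therefore given as TPM rescaled to protein-coding nuclear genes. Of the 10 monocyte markers 10 passed the filter, and their summed TPM ranged from 22456 to 24393 in WT and from 24644 to 25966 in Ifnar1-/- libraries. Ifnar1 itself ran from 111.3 to 152.7 CPM in WT and from 101.5 to 109.9 CPM in Ifnar1-/- libraries, so whole-gene counts do not check the deletion. Of 8 interferon reference genes, 7 were higher in WT, with log2 fold changes of 3.56 to 5.22 (edgeR).

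The 6 genes were transcribed at very different levels. Fcer1g was the most abundant, at 2584 ± 178 TPM in WT and 1938 ± 389 TPM in Ifnar1-/- libraries (mean ± SD, n = 3 here and below). It ranked 52 of 21970 protein-coding genes by mean TPM. Fcgr3 followed with 1228 ± 121 and 1371 ± 89.1 TPM (rank 112), and Fcgr2b with 791 ± 119 and 864 ± 57.9 TPM (rank 201). Thus the shared signaling chain, a low-affinity activating receptor, and the inhibitory receptor were, in this order, the leading genes of the family in both genotypes. The ranges of these 3 genes did not overlap within either group. Fcgr1 had 554 ± 115 TPM in WT and 306 ± 10.7 TPM in Ifnar1-/- libraries. Fcgr4 had 442 ± 59.0 and 433 ± 54.7 TPM. Fcgrt was far lower, at 12.0 ± 2.98 and 9.06 ± 2.67 TPM (rank 7545). The order changed at 1 place only. In WT, Fcgr1 lay above Fcgr4 in 2 of 3 libraries with overlapping ranges, whereas in Ifnar1-/- libraries Fcgr4 lay above Fcgr1 in 3 of 3 without overlap.

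**Figure D1:**
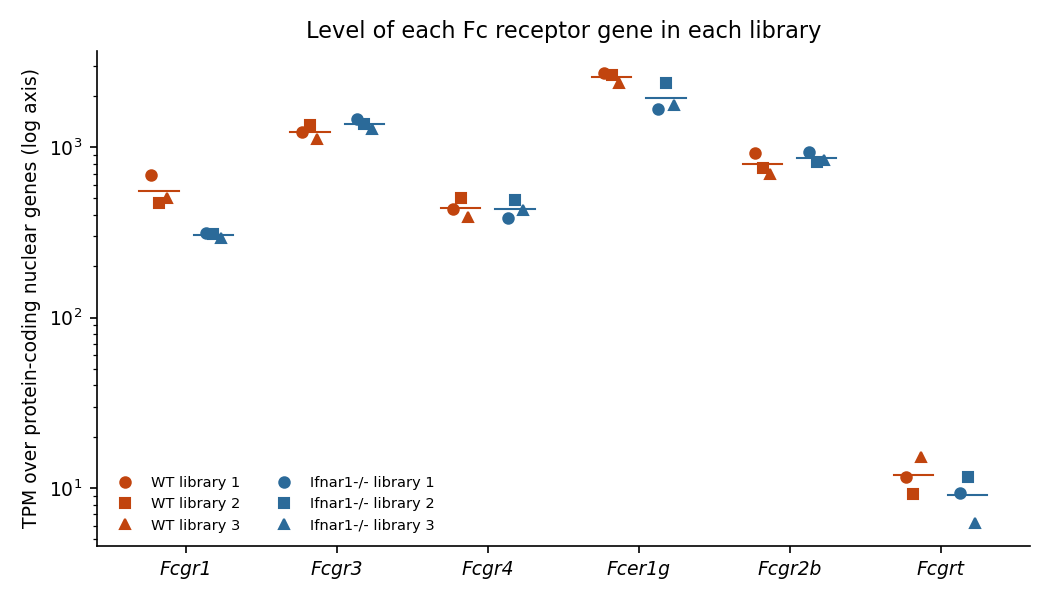
Level of each gene in each library, as TPM over protein-coding nuclear genes on a log axis, with WT in red and Ifnar1-/- in blue, one symbol per library number, and a line at each group mean. Fcer1g lies highest and Fcgrt lowest in all 6 libraries, and Fcgr1 is the gene whose groups stand apart, with WT at 471 to 685 TPM and Ifnar1-/- at 294 to 315 TPM.

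Fcgr1 encodes the high-affinity IgG receptor (ENSMUSG00000015947.10, GRCm38 chr3:96282909-96293969, minus strand) and lies, like Fcgrt on chromosome 7, outside the chromosome 1 cluster. Normalized CPM of WT libraries 1, 2, and 3 were 412.9, 278.4, and 271.5, against 203.1, 193.8, and 192.2 in the Ifnar1-/- libraries in the same order. Every WT library lay above every Ifnar1-/- library, WT library 1 was well above the other two, and the Ifnar1-/- libraries were nearly equal. Means were 320.9 ± 79.7 and 196.4 ± 5.88 normalized CPM, and the log2 fold change of WT over Ifnar1-/- was 0.71 (SE 0.18, 95% interval 0.31 to 1.11), which is 1.64-fold (1.24 to 2.16). Differential expression was taken as an adjusted p of at most 0.05 with a fold change of at least 1.5, and by the quasi-likelihood test of edgeR Fcgr1 did not pass it (adjusted p = 0.0839, unadjusted 0.00276). By DESeq2, the tool of the study's methods, it passed (log2 fold change 0.73, SE 0.19, adjusted p = 0.00936). Without WT library 1 the log2 fold change was 0.49 and the edgeR adjusted p was 0.169. A two-sided exact permutation test over the 6 libraries gave p = 0.1, the smallest that 3 against 3 can give.

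Of the 6 genes, 0 passed the edgeR test and 1, Fcgr1, passed the DESeq2 test. Over all genes tested, edgeR called 2.13% (240 of 11254) and DESeq2 called 3.7% (420 of 11364). Fcgr1 was also the 1 member at an unadjusted edgeR p below 0.05, and the 1 member whose groups did not overlap, where 23.4% of all tested genes had groups that did not overlap. The share of all tested genes at an unadjusted p below 0.05 is not given. Counts at that p, here and below, are therefore not read as an excess. In bulk libraries, fewer cells of a type and less RNA per cell cannot be told apart.

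**Figure D2:**
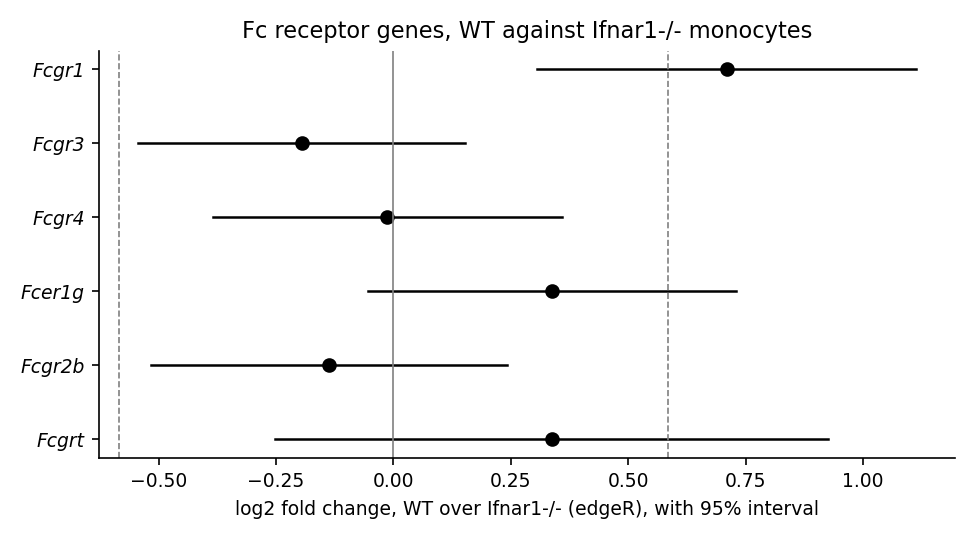
log2 fold change of WT over Ifnar1-/- for each gene by edgeR (points) with its 95% interval (lines), where dashed lines mark a 1.5-fold change in either direction. The interval of Fcgr1, 0.31 to 1.11, is the only one that lies wholly to the right of 0, and those of Fcgr3, Fcgr4, and Fcgr2b lie between the dashed lines.

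Fcgr3, the low-affinity activating receptor (ENSMUSG00000059498.13, chr1:171051174-171064935, minus strand), had 668.6, 753.2, and 591.3 normalized CPM in WT and 809.3, 778.3, and 717.9 in Ifnar1-/- libraries. Its groups overlapped, with WT library 2 above Ifnar1-/- library 3. The log2 fold change was -0.20 (SE 0.16, 95% interval -0.54 to 0.15, edgeR adjusted p = 0.557). Fcgr4, a mouse activating receptor for IgG2a and IgG2b (ENSMUSG00000059089.4, chr1:171018920-171029761, plus strand), had 219.8, 260.4, and 190.9 normalized CPM in WT and 197.6, 258.1, and 221.4 in Ifnar1-/- libraries. In both groups library 2 was the highest, and the groups overlapped over most of their range. Its log2 fold change was -0.01 (SE 0.17, 95% interval -0.38 to 0.36, adjusted p = 0.981). The intervals of both genes exclude a 1.5-fold difference in either direction.

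Fcer1g (ENSMUSG00000058715.11, chr1:171229572-171234365, minus strand) had 618.5, 614.7, and 521.6 normalized CPM in WT and 396.1, 568.3, and 424.6 in Ifnar1-/- libraries. Ifnar1-/- libraries 1 and 3 were below every WT library, while Ifnar1-/- library 2 was above WT library 3. The log2 fold change was 0.34 (SE 0.18, 95% interval -0.06 to 0.73) and did not pass the test (edgeR adjusted p = 0.348). The interval reaches from no difference to beyond 1.5-fold, so the data do not show that the chain was alike in the 2 genotypes.

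Fcgr2b, the inhibitory receptor (ENSMUSG00000026656.15, chr1:170958617-170976547, minus strand), had 634.5, 515.6, and 440.7 normalized CPM in WT and 629.6, 569.0, and 550.8 in Ifnar1-/- libraries. The WT libraries spanned the whole range of the Ifnar1-/- libraries. The log2 fold change was -0.14 (SE 0.17, 95% interval -0.52 to 0.24, edgeR adjusted p = 0.721), and this interval also excludes a 1.5-fold difference. Fcgrt (ENSMUSG00000003420.8, chr7:45092990-45103851, minus strand) had 7.0, 6.2, and 9.3 normalized CPM in WT and 6.0, 6.9, and 4.8 in Ifnar1-/- libraries. At this low level the estimate was wide, with a log2 fold change of 0.34 (SE 0.27, 95% interval -0.25 to 0.93, edgeR adjusted p = 0.550), and the groups overlapped. The annotation places Gm38204 opposite part of Fcgr2b and Gm45669 opposite part of Fcgrt, and whether the authors' counting used strand is not given in the sources used here.

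Fcgr2b and Fcgr3 lie in the chromosome 1 cluster on either side of Fcgr4. They have nearly identical extracellular exons, and RSEM divides reads that match both. The trace of this was visible in the files: expected counts of Fcgr2b and Fcgr3 were fractional in all 6 libraries but summed to whole numbers, whereas those of the other 4 genes were whole. Of 1733 windows of 75 bases in Fcgr3 transcripts, 94 (5.42%) also occurred in Fcgr2b, and none of the windows of Fcgr1, Fcgr4, Fcer1g, or Fcgrt occurred in another gene. Of 5768 windows in Fcgr2b transcripts, 156 (2.7%) occurred in 1 or more of 23 other genes, 94 of them in Fcgr3. The longest stretch of coding sequence that both genes share was 129 bases. It is shown because a single 75-base read from within it matches both genes, the mate of a paired read aside. It is printed 5′ to 3′ with no capitals, since every base is identical in both genes.
Fcgr2b and Fcgr3, shared coding run: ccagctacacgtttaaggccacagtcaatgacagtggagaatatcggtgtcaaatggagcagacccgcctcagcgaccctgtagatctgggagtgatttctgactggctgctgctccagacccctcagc
In Fcgr2b the run lies in exon 3 (GRCm38 chr1:170967980-170968081) and exon 4 (chr1:170966674-170966700), and in Fcgr3 in exon 3 (chr1:171057691-171057792) and exon 4 (chr1:171054167-171054193), all on the minus strand. Of the counts of both genes, Fcgr2b took 48.7%, 40.6%, and 42.7% in WT and 43.8%, 42.2%, and 43.4% in Ifnar1-/- libraries 1, 2, and 3. WT library 1 was the highest and WT library 2 the lowest, so the split did not separate the genotypes. With the counts of both genes summed into 1 feature, which does not depend on the split, the log2 fold change was -0.17 (SE 0.16, 95% interval -0.54 to 0.20, edgeR adjusted p = 0.632).

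Ratios within a library do not depend on its depth or on Rn7s2, and are given as values with no test. Those that hold Fcgr2b or Fcgr3 do depend on how RSEM divided the reads that match both. Fcgr1 made up 20.98%, 15.3%, and 18.7% of the summed TPM of the 4 receptors in WT, but 10.2%, 10.3%, and 10.3% in the Ifnar1-/- group, for libraries 1, 2, and 3. Every WT share lay above every Ifnar1-/- share. Fcgr3 made up 37.4%, 44.0%, and 41.1% in WT and 47.3%, 45.9%, and 45.0% in Ifnar1-/- libraries, where the groups also did not overlap. Since the shares add up to the whole, a higher share of Fcgr1 goes with a lower share of the others. Fcgr2b made up 24.4% to 28.3% in WT and 27.4% to 30.1% in Ifnar1-/- libraries, and Fcgr4 13.3% to 16.4% and 12.4% to 16.4%, both with overlap.

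Relative to the TPM of Fcgr2b, Fcgr1 stood at 0.740, 0.628, and 0.724 in WT and at 0.338, 0.377, and 0.348 in Ifnar1-/- libraries 1, 2, and 3. The groups were clearly apart in this ratio (0.697 ± 0.0607 and 0.355 ± 0.0203), and WT library 1 did not stand out in it. The ratio of all 3 activating receptors to the inhibitory receptor was 2.53, 3.10, and 2.87 in WT and 2.32, 2.65, and 2.37 in Ifnar1-/- libraries. Here the groups overlapped, since WT library 1 lay below Ifnar1-/- library 2 (means 2.83 ± 0.290 and 2.45 ± 0.180). In WT library 1 Fcgr2b also took its largest part of the counts of Fcgr2b and Fcgr3 (48.7%). The part of this split in the ratios was not tested. Without Fcgr1 the same ratio was 1.79 to 2.48 in WT and 1.98 to 2.28 in Ifnar1-/- libraries, with the Ifnar1-/- values inside the WT range. Fcer1g was 1.16, 1.14, and 1.19 times the summed TPM of the activating receptors in WT and 0.771, 1.10, and 0.883 times in Ifnar1-/- libraries. The WT values were nearly equal and the Ifnar1-/- values were lower and scattered (1.16 ± 0.0234 and 0.917 ± 0.165).

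**Figure D3:**
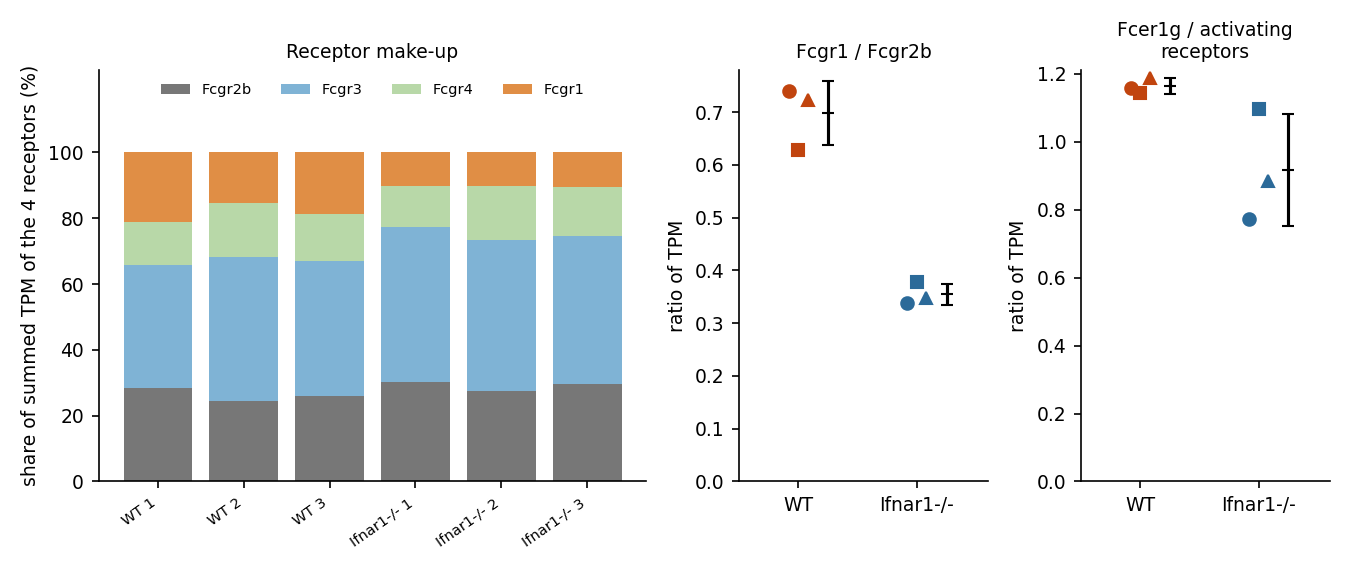
Left, share of each of 4 receptors in their summed TPM in each library (stacked bars, percent), and middle and right, the ratio of Fcgr1 to Fcgr2b and of Fcer1g to the 3 activating receptors in each library (symbols) with mean and SD (black). The Fcgr1 share is 15.3% to 20.98% in WT and 10.2% to 10.3% in Ifnar1-/- libraries, and neither ratio overlaps between the groups.

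Sequence upstream of the genes is shown for Fcgr1 and Fcgr4, whose levels overlapped in WT but not in Ifnar1-/- libraries. RefSeq starts on GRCm38.p6 were found for all 6 genes, and the 250 bases before each start were searched on both strands for 3 motifs: GAS (TTCNNNGAA, an element of interferon-responsive genes), ISRE (GAAA and GAAA again after a gap of 2 bases, bound by the ISGF3 complex of type I IFN signaling), and PU.1 (GAGGAA, bound by the myeloid factor PU.1). Each is printed 5′ to 3′ on the strand of the gene, with the GAS or ISRE match in capitals.
Fcgr1, chr3:96293970-96294219, minus strand: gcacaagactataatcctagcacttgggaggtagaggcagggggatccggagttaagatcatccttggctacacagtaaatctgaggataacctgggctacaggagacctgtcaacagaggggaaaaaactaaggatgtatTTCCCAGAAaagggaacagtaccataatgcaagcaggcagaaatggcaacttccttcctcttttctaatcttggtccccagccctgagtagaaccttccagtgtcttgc
Fcgr4, chr1:171018676-171018925, plus strand: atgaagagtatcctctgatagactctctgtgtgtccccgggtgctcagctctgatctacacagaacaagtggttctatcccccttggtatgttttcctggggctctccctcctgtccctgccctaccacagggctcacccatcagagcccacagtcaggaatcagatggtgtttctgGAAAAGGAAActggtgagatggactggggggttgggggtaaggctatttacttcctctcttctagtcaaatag
The Fcgr1 window held a GAS match at position -109 from the start and a PU.1 match at -55, and no ISRE match. The Fcgr4 window held an ISRE match at -73 and a PU.1 match at -22, and no GAS match. Both windows listed for Fcgr3 held a PU.1 match, while those of Fcgr2b, Fcer1g, and Fcgrt held none of the 3 motifs. Of 32851 promoters searched in the same way, 7.02% held GAS, 2.98% held ISRE, and 23.25% held PU.1. These matches are descriptions of the letters and not evidence of binding.

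Next, genes that carry the signal of activating receptors were examined, from the Src family kinases to the GTPases of the phagocytic cup. Of 43 such genes 43 were tested, 0 passed the edgeR test, and 6 had an unadjusted p below 0.05, a count not read as an excess. Their median log2 fold change was 0.22, against -0.01 over all tested genes, with 32 of 43 above 0. The list ranged from -0.21 for Cdc42, a GTPase of the phagocytic cup, to 0.73 for Lat, a scaffold adaptor (adjusted p = 0.45). Pik3cd, which encodes the p110-delta subunit of PI3K, had the smallest p (log2 fold change 0.68, edgeR adjusted p = 0.122) and was the 1 gene of the list called by DESeq2 (adjusted p = 0.0387). Without WT library 2 it also passed the edgeR test (log2 fold change 0.88, adjusted p = 0.0481). Syk, the kinase that docks on the ITAM, had a log2 fold change of 0.46 (adjusted p = 0.228). Marcks, an actin-binding substrate of protein kinase C, had 0.44 (adjusted p = 0.177), Prkce, a protein kinase C, 0.52 (adjusted p = 0.182), and Pik3r5, a regulatory subunit of PI3K-gamma, 0.52 (adjusted p = 0.241). Among the 4 most abundant genes of the list, Rac1, another such GTPase, had 845 ± 81.9 TPM in WT and 806 ± 32.0 in Ifnar1-/- libraries (log2 fold change 0.00). Lyn, the Src kinase that phosphorylates ITAM and ITIM, had 487 ± 41.0 and 481 ± 100.4 TPM (-0.04). Prkcd, a protein kinase C, had 541 ± 138.6 and 462 ± 84.6 TPM (0.28), and Cdc42 had 485 ± 36.9 and 549 ± 56.8 TPM.

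Of 12 genes of the inhibitory arm 12 were tested and 0 passed either test. At an unadjusted edgeR p below 0.05 there were 2. Their median was 0.21 on the log2 scale, and 9 lay above 0. Inpp5d, which encodes SHIP-1, had 198 ± 41.7 TPM in WT and 171 ± 12.3 in Ifnar1-/- libraries (log2 fold change 0.41, edgeR adjusted p = 0.291). Ptpn6, which encodes SHP-1, had 425 ± 68.1 and 424 ± 48.3 TPM (0.18, adjusted p = 0.609). The list ran from Dok2, a docking adaptor that restrains signaling (-0.61, adjusted p = 0.107), to Csk, the kinase that switches off Src kinases (0.52, adjusted p = 0.118). Dok2 passed with offsets for GC content and length (-0.80, edgeR adjusted p = 0.0390). The medians of the activating and inhibitory lists were thus close to each other.

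Other receptors that use the FcR gamma chain were expressed, but none passed either test, and 0 had an unadjusted edgeR p below 0.05. Of 7 listed, 4 were tested: Clec4e, which encodes the receptor Mincle (log2 fold change -0.01, edgeR adjusted p = 0.989), Clec4d (-0.25, adjusted p = 0.486), Clec4n, which encodes Dectin-2 (-0.19, adjusted p = 0.723), and Pira2 (0.24, adjusted p = 0.451). Gp6 did not pass the filter, Oscar was at 0 in every library, and Pira6 was not analysed here. Tyrobp, which encodes DAP12, the other ITAM adaptor of myeloid cells, had 1141 ± 9.25 TPM in WT and 1227 ± 52.0 in Ifnar1-/- libraries. Tyrobp had a log2 fold change of -0.20 (adjusted p = 0.474), while that of Fcer1g was 0.34, and the difference between the adaptors was not tested. Of 8 ITAM adaptors other than Fcer1g 6 were tested, 0 passed either test, and 4 had an unadjusted edgeR p below 0.05. These 4 were Cd3g, Cd3e, Cd247, and Cd3d of the T cell receptor complex (log2 fold changes 1.48 to 1.74). All of them passed with no filter on low counts, a setting that called 872 of 21265 genes.

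Among 13 other Fc receptor, Fc receptor-like, and partner genes, 3 were tested, 0 passed the edgeR test, and 2 had an unadjusted p below 0.05. B2m, the light chain that FcRn shares with MHC class I, had 6499 ± 531 TPM in WT and 3885 ± 821 in Ifnar1-/- libraries without overlap. On the log2 scale the difference was 0.68 (SE 0.20, edgeR adjusted p = 0.118), and DESeq2 called it (adjusted p = 0.0102). With GC and length offsets plus a replicate block it was 1.11 (adjusted p = 0.0416). Its partner in FcRn, Fcgrt, lay at 12.0 and 9.06 TPM. Trim21, a cytosolic receptor for the Fc part of antibodies, had a log2 fold change of 0.56 (adjusted p = 0.148), and Fcrlb, an intracellular Fc receptor-like protein, -0.03 (adjusted p = 0.980). Fcer1a, the IgE-binding chain of mast cells and basophils, and Fcer2a, Fcmr, Fcamr, Pigr, and Fcrl5 were at 0 in every library.

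**Figure D4:**
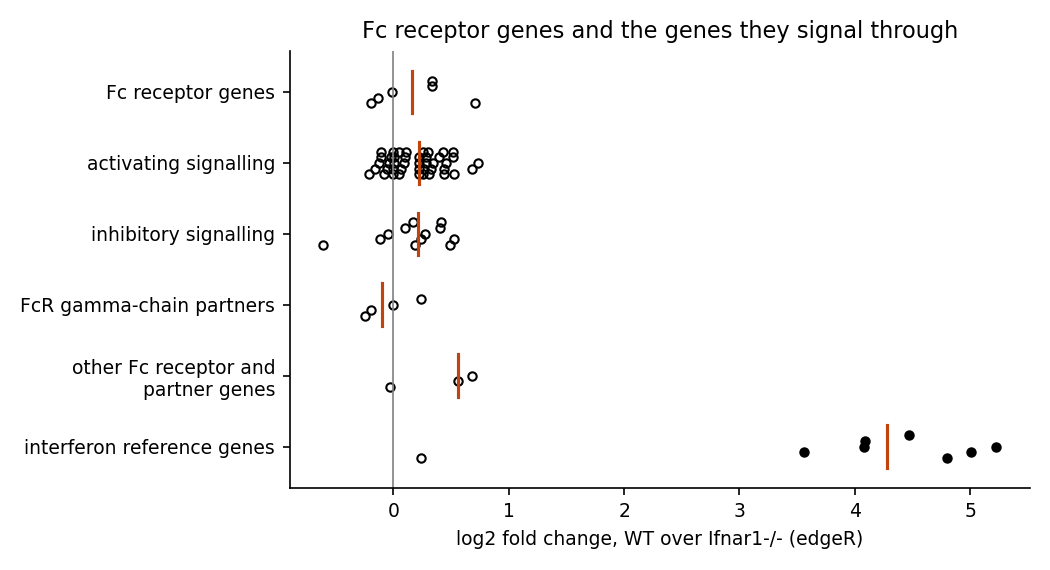
log2 fold change of WT over Ifnar1-/- by edgeR for each tested gene of 6 lists, one circle per gene, filled where the gene passed the test, with a red bar at the list median. The activating and inhibitory lists lie around 0.22 and 0.21, and filled circles appear only among the interferon reference genes, at 3.56 to 5.22.

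Markers of other leukocytes that carry these receptors were measured in the same libraries. NK cells use Fcgr3 and Fcer1g, and the summed TPM of 8 NK markers was 29.6 to 48.5 in WT and 5.66 to 16.9 in Ifnar1-/- libraries, with 2 genes tested, Klrk1 called higher in WT (log2 fold change 2.05), and Klra8 at 0 throughout. T cell markers summed to 95.6 to 144 TPM in WT and 51.4 to 67.2 in Ifnar1-/- libraries, with 0 of 8 tested genes passing the edgeR test, 6 at an unadjusted p below 0.05, 6 without overlap, and 1, Il7r, called by DESeq2. B cells use Fcgr2b, and their 8 markers summed to 6.20 to 12.5 and 1.88 to 4.78 TPM, with 4 of 8, Pax5 among them, at 0 in every library. These 3 sums were higher in every WT library than in any Ifnar1-/- library. The part of these cells in the results was not tested. Neutrophils use Fcgr3 and Fcgr4, and their 10 markers spread widely within both groups, from 959 to 9276 TPM in WT and from 3128 to 10638 TPM in Ifnar1-/- libraries. Library 3 was the highest in both groups, and the other libraries held at most 3045 TPM in WT and 4120 TPM in Ifnar1-/-. WT library 1, which had the most Fcgr1, had the lowest neutrophil sum, and the part of this in the results was not tested. Ly6g, against which the cells were sorted, had at most 4 counts in any library. Microglial markers summed to 322 to 391 and 369 to 457 TPM, dendritic cell markers to 67.5 to 104 and 48.1 to 97.4 TPM, mast cell and basophil markers to 7.40 to 15.5 and 2.79 to 11.5 TPM, and neural and myelin markers to 26.8 to 38.6 and 26.6 to 27.3 TPM, all with overlap. Among the 10 monocyte markers, 4 lay above 0 and the median was -0.02 on the log2 scale. Their sum was lower in every WT library than in any Ifnar1-/- library. Ly6c2 was higher in WT (1.40, edgeR adjusted p = 0.00957), while Ccr2, the chemokine receptor of inflammatory monocytes, had -0.62 without overlap (edgeR adjusted p = 0.143) and was called lower by DESeq2 (adjusted p = 0.0428).

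For each gene, the 3 protein-coding genes with the most similar pattern were sought among 7312 genes by Pearson correlation of log2 CPM over the 6 libraries, which is a description of few points that share their library and depth. For Fcgr1 these were Plekhm2 (0.995), Slfn9 (0.993), and Vamp2 (0.993), of which Slfn9 passed the edgeR test (log2 fold change 1.97). Fcgr3 was most like Nsun3, Manea, and Dync1li2 (0.985 to 0.991), and Fcgr4 most like Mpdu1, Tbl3, and Stk19 (0.982 to 0.995). For Fcer1g they were Atp13a1 (0.990), Tap2, a subunit of the peptide transporter of MHC class I loading (0.986), and Lrp10 (0.985). Fcgr2b was closest to Lgals1, Pmpca, and Chtf8 (0.983 to 0.993), and Fcgrt to Camsap2, Rbm43, and Smg1 (0.963 to 0.972). None of these genes other than Slfn9 passed the test, and no gene was among the 3 most similar to more than 1 member.

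Fcgr2b, Fcgr4, Fcgr3, and Fcer1g lie within 276 kb of chromosome 1, about 32.8 Mb from Ptprc, the gene for CD45, whose donor variants differ between the groups. Of 18 tested neighbors within 250 kb of these genes 1 passed the edgeR test, Nectin4, an adhesion molecule (log2 fold change 2.10, adjusted p = 0.00206). Around Fcgr1, 0 of 21 tested neighbors passed, and around Fcgrt 1 of 24, the pseudogene Rpl14-ps1 (-1.18, adjusted p = 0.0344).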

How the data were processed

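Library kits differ between the sources: the labels name a Takara SMARTer stranded total RNA kit, the paper's methods a TruSeq one. The submitters' processing notes name STAR 2.6.0c, RSEM 1.2.31, and GRCm38. The authors deposited, per gene and library, RSEM expected counts (estimated, not normalized), TPM, and FPKM (both scaled per library by the authors). FPKM was not used, and the deposited effective lengths (other) served only for an alternative. The members and gene lists were chosen with earlier results of these data known.

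Expected counts were rounded and tested with edgeR 4.0.16 in R 4.3.3 (TMM, filterByExpr with a minimum count of 10, quasi-likelihood test, Benjamini-Hochberg adjustment over all 11254 tested genes, no block). Normalized CPM use TMM-adjusted library sizes, and exact tests used log2(CPM + 0.5). Names and positions came from GENCODE M21, which matched 54165 genes and left 67 unmatched. Named genes were all members, list genes by smallest p (at most 6 a list) or highest TPM (at most 4), the 3 most similar genes per member (mean CPM of at least 10), and neighbors that passed the test. Csk, Dok2, Lat, Cdc42, and genes at 0 or called by DESeq2 alone were named after their values were seen. Alternatives were DESeq2 1.42.0, limma 3.58.1 (voom, and TPM with pseudocounts of 1 and 0.1), other normalizations and filters, a replicate block, and leaving out each library. GC and length offsets, and Fcgr2b and Fcgr3 summed, were chosen after seeing the data. The test was checked on simulated counts, where it called 46.2% of 2-fold and 91.8% of 4-fold changes, and 4.51% of calls were false. Smaller changes were not simulated. Results for some single genes of the lists are not given.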

Additional observations from a re-analysis of the deposited data

How the results depend on the processing

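All alternatives reused the same libraries, in which the groups of Fcgr1 did not overlap, so a kept direction is no independent support. Fcgr1 kept its direction under 20 of 20 alternatives (log2 fold change 0.49 to 0.84, adjusted p 0.00395 to 0.248). It also passed the threshold, so that 1 member was called higher, with DESeq2 (0.73), with no filter on low counts (0.71), with the replicate block in DESeq2 (0.70), and with GC and length offsets plus the replicate block (0.62); the cause was not tested. In that order, these settings called 420 of 11364, 872 of 21265, 264 of 10133, and 360 of 11242 tested genes. The main test called 240 of 11254. Leave-outs of single libraries gave 0 members called. Fcer1g ran from 0.25 to 0.61, Fcgr3 from -0.27 to -0.08, and Fcgrt from 0.18 to 0.48, none past the threshold. Fcgr2b changed sign only without WT replicate 3 (0.0039), its leave-outs spanning -0.28 to 0.0039. Fcgr4, next to 0, turned positive with DESeq2 (0.0028), RLE normalization (0.0018), mitochondrial and rRNA genes removed (0.0022), the replicate block in DESeq2 (0.000524), and GC and length offsets without (0.15) and with (0.15) the block, and its leave-outs spanned -0.12 to 0.11. The activating list had 1 call (Pik3cd) with DESeq2, with no filter, and without WT replicate 2 (leave-outs 0 to 1). The inhibitory list had 1 call (Dok2) with no filter and with GC and length offsets without (1) and with (1) the block. The list of other Fc receptor and partner genes had 1 call (B2m) with DESeq2, no filter, and the block in DESeq2, and 2 (B2m and Trim21) with offsets plus the block. Of the ITAM adaptors, Cd3e, Cd3g, Cd3d, and Cd247 passed with no filter, and Cd3e and Cd3g with offsets plus the block. Over all tested genes, offsets without the block called 225 of 11242, and leaving out WT replicate 2 called 245 of 11572.

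Same-numbered libraries correlated at 0.0872, 0.0265, and 0.289 in their deviations from the group means. WT libraries 2 and 3 correlated best with the Ifnar1-/- library of the same number, and WT library 1 with Ifnar1-/- library 2 (0.101). The labels do not say whether a number marks a shared mouse, and these values do not settle it. The replicate block in edgeR gave 220 calls over all genes and left Fcgr1 at 0.68 (adjusted p = 0.0854). Against 240 calls over all genes, DESeq2 gave 420, no filter 872, offsets with the block 360, TPM + 1 128, TPM + 0.1 124, TPM + 1 with no filter 74, and leaving out WT library 3, Ifnar1-/- library 1, or Ifnar1-/- library 3 148, 119, or 120. Shares and ratios of TPM cannot change with rescaling to protein-coding genes, which divides all genes of a library by the same number. With 3 libraries a group, differences near 1.5-fold lie close to what the intervals can resolve.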
